A study of Homo sapiens with 3 samples.

Results

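Ribosome-protected fragments (RPFs) on actin and its binding proteins were compared between untreated HEK293T cells and HEK293T cells given G418. The transcripts were chosen by gene name: the cytoplasmic actins ACTB and ACTG1, the profilins PFN1 and PFN2, the cofilins CFL1 and CFL2, the β-thymosins TMSB10 and TMSB4X, the myosin light chain MYL6 and the capping protein subunit CAPZB. Of these 10 genes, 9 were listed in every library, each by a single transcript, among 9706 transcripts listed in any library and 8812 listed in all. TMSB4X was not listed and was not analysed here. HEK293T is a line of human embryonic kidney origin that expresses SV40 large T antigen, and G418 is an aminoglycoside that lowers the accuracy of decoding. The untreated group had 2 libraries, Untreated A and Untreated B (0 µg/mL), and the treated group 1 library, G418 A (500 µg/mL), all labelled 24 hours. The question was how often ribosomes passed the stop codons of these abundant transcripts with and without the drug, and whether their coding sequences (CDS) held more or fewer ribosomes.

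Actin is the subunit of the filaments that give the cell its shape and cortex. Subunits join a filament mostly at its barbed end and leave at its pointed end. Profilin binds free subunits and feeds them to the barbed end, β-thymosins hold free subunits in reserve, cofilin severs and disassembles old filaments, capping protein closes the barbed end, and myosin motors with their light chains pull on the filaments. A ribosome that reaches the normal termination codon (NTC) normally releases the protein there. When a tRNA is accepted in place of the release factor, the ribosome reads through and goes on translating in the 3′UTR until it meets another in-frame stop codon (3′TC).

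The sequences at the stop codons of 8 of the transcripts are shown because the readthrough of each was set beside that of others with the same stop codon and following base. Each is 30 nt of the GENCODE v44 transcript, 5′ to 3′, made of 15 nt of coding sequence, the NTC in capitals and the 12 nt after it. Coordinates of the NTC are on hg38.
ACTB: caccgcaaatgcttcTAGgcggactatgac
ACTG1: caccgcaaatgcttcTAAacggactcagca
PFN2: gtgccatactattgtTAAaatgaactgttg
CFL1: gagggcaagcctttgTGAgccccttctggc
CFL2: gaaggaaaaccattaTAAaatgacagtcaa
TMSB10: cggagtgaaatttccTAAgatcctggagga
MYL6: cacaatccccctgccTGAcagccacaggag
CAPZB: agaaagcagcaatgcTAAacctctgtttca

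The NTC of ACTB lay at chr7:5527748-5527750 on the minus strand, in the last of 6 exons, and that of ACTG1 at chr17:81510690-81510692 on the minus strand, also in the last of 6. ACTB and ACTG1 had the same last 15 coding nt, different stop codons and the same base at 7 of the 12 positions after them. PFN2 ended at chr3:149965191-149965193 (minus strand, exon 4 of 4). CFL1 ended at chr11:65855336-65855338 (minus strand, exon 5 of 5) and CFL2 at chr14:34712865-34712867 (minus strand, exon 4 of 4). TMSB10 ended at chr2:84906421-84906423 (plus strand, exon 3 of 3), MYL6 at chr12:56162320-56162322 (plus strand, exon 6 of 7) and CAPZB at chr1:19339530-19339532 (minus strand, exon 9 of 9).

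The NTC was common to all annotated coding transcripts of ACTG1 (12 of 12), PFN1 (2 of 2), CFL1 (7 of 7), CFL2 (7 of 7) and TMSB10 (1 of 1), and to 8 of 10 for ACTB. By contrast, the NTC of the listed transcript was shared by only 1 of 14 coding transcripts of PFN2, 1 of 12 of MYL6 and 2 of 7 of CAPZB. How much of the CDS occupancy of these last 3 genes came from isoforms that end elsewhere was not tested.

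The stretch from NTC to 3′TC differed widely in length. ACTG1, PFN2, CFL2 and CAPZB met a further stop within a short distance, at 21, 21, 30 and 18 nt (counted through the 3′TC). In TMSB10 it came at 102 nt, in MYL6 at 129 nt and in CFL1 at 216 nt. The listed ACTB and PFN1 transcripts had no in-frame stop before their ends, so the readthrough region was nearly their whole 3′UTR, 200 of 206 and 236 of 242 counted nt. Which 6 nt it leaves out was not worked out, and in ACTB in G418 A they held 13 of 465 reads. A longer ACTB transcript in GENCODE v44 meets UAAU at 243 nt. The shortest regions, with both stops in capitals and the last sense codon before the NTC, read as follows.
ACTG1: ttcTAAacggactcagcagatgcgTAG
PFN2: tgtTAAaatgaactgttgctattgTGA
CAPZB: tgcTAAacctctgtttcatgcTAA

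The libraries rested on 5857230 (Untreated A), 9477972 (Untreated B) and 7216039 (G418 A) RPFs behind the deposited scale. The study describes its replicate libraries as biological replicates. Every p-value rests on the spread between Untreated A and Untreated B, shared largely across transcripts, so it does not measure each transcript's own spread. The lone G418 library is assumed to vary like the untreated ones. Of the HEK293T markers, VIM, KRT8, KRT18, LIN28B, NEFL and NEFM were listed in every library (VIM at 1710 to 2163 RPKM), PAX2 only in Untreated B (1.28 RPKM) and CDH2 in none. Of the markers of other cell types, COL1A2, DCN, PTPRC, PECAM1, CDH5 and MYOG were listed in none, CD74 was listed in both untreated libraries only (1.60 and 2.72 RPKM), COL1A1, LUM and DES stayed between 3.51 and 10.7 RPKM, and the muscle actin ACTA1, which shares much of its sequence with ACTB and ACTG1, lay at 40.5 to 65.4 RPKM.

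Readthrough was scored as the ribosome readthrough score (RRTS), the RPF density in the stretch that begins 6 nt after the NTC and ends with the 3′TC, in percent of the same transcript's CDS density. The 5684 transcripts that passed a minimum on mean CDS reads were tested. In untreated cells readthrough reads were few. The 9 transcripts together had 62 readthrough reads in Untreated A and 136 in Untreated B, against 1578 in G418 A. Their CDS reads numbered 55439, 98489 and 63361. Of the 9, ACTG1, PFN2, CFL2, MYL6 and CAPZB scored 0 in both untreated libraries. For PFN2, CAPZB and CFL2 the limit was loose. There, 3 reads would have meant an RRTS of 28.2%, 14.8% and 7.65% in Untreated A. In Untreated B they would have meant 21.7%, 7.75% and 5.31%. In G418 A the RRTS ran from 0 to 59.4%, with a median of 21.6%, beside a median of 18.3% over all tested transcripts. Readthrough rose past the threshold for ACTB, ACTG1, PFN1, CFL1 and TMSB10 (5 of 8 fitted members), in a comparison that called 3.10% of all fitted transcripts higher and none lower (139 of 4483, edgeR quasi-likelihood test, Benjamini-Hochberg adjusted p under 0.05).

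That call followed the number of reads. All 59 transcripts with at least 150 readthrough reads in G418 A were called, the 5 called members among them, whereas 139 of the 1809 with at least 10 were. Of all 5684 tested transcripts, 75.8% had at least 1 readthrough read in G418 A, beside 24.0% in Untreated A and 22.3% in Untreated B. DESeq2 on the same reads called none of 4483 at the adjusted threshold (412 had an unadjusted p under 0.05, beside 394 with edgeR), and the adjusted p of the 5 members then lay between 0.0973 and 0.195.

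**Figure D1:**
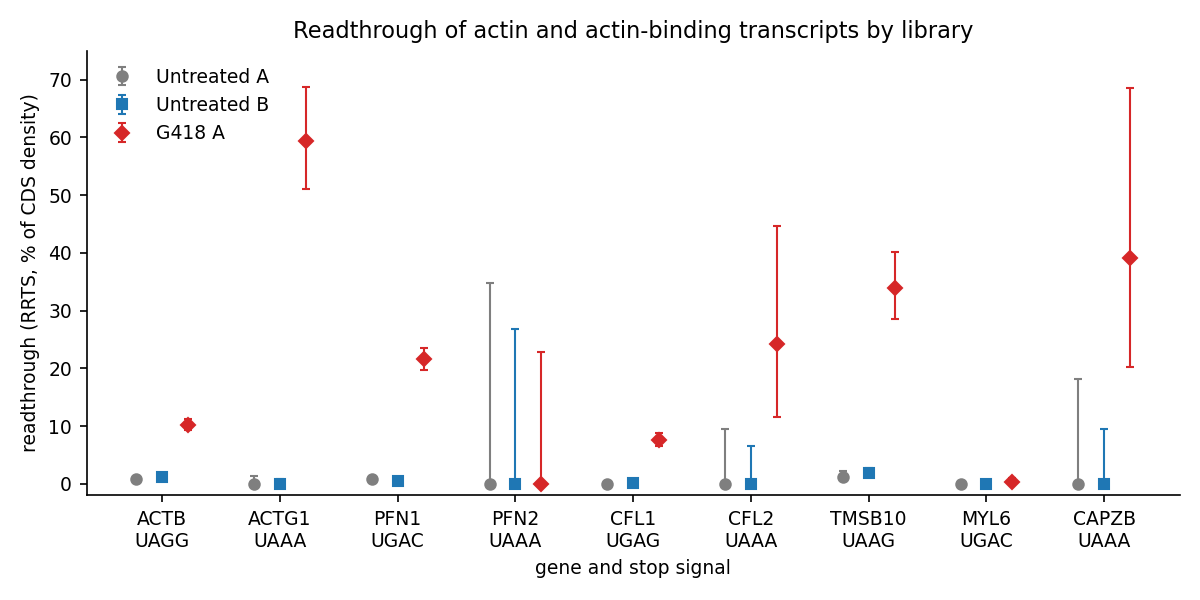
RRTS (percent of CDS density, linear axis) of the 9 transcripts in Untreated A, Untreated B and G418 A, with the stop codon and following base under each name and bars for the exact 95% interval (counting error only). In G418 A the intervals of ACTB, ACTG1, PFN1, CFL1, TMSB10, CFL2 and CAPZB lie above both untreated intervals, those of CFL2 and CAPZB from 10 and 12 reads. PFN2 has no reads in any library, and MYL6 has 0 reads in both untreated libraries and 0.319% in G418 A.

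ACTB encodes β-actin, the main actin of motile edges. Untreated A gave it an RRTS of 0.823% (29 reads) and Untreated B 1.24% (83 reads), while G418 A gave 10.2% (452 reads). The G418 library stood clear of both untreated ones. Their mean was 1.03% ± 0.297 (SD, n = 2), which makes the G418 value 9.87-fold higher (log2 change 3.29, SE 0.54, edgeR adjusted p = 3.7e-07). Among the 337 other tested transcripts ending in UAGG, the median RRTS in G418 A was 13.4%, and 40.7% of them scored lower than ACTB.

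ACTG1 encodes γ-actin, which differs from β-actin at a few residues near its start. It had 0 readthrough reads in Untreated A and Untreated B, where 3 reads would have meant an RRTS of 1.07% and 0.639%. In G418 A, 181 reads fell into the 15 counted nt, an RRTS of 59.4% (exact 95% interval 51.0 to 68.7%). The fitted change passed the test (edgeR adjusted p = 1.22e-05), and its fold depends on the prior count. Over a floor of 3 reads in both untreated libraries, the G418 score was 148-fold higher. Over 3 reads in Untreated A or Untreated B alone it was 55.4-fold and 92.9-fold higher. This was the highest RRTS of the 9 transcripts, from a UAAA stop whose 661 other transcripts had a median of 7.68%, and 91.7% of those scored lower. Of the ones with enough CDS reads to give 100 readthrough reads at CDS density, a minimum chosen after the data were seen, all 100 scored lower. That minimum favours long regions, so it does not set ACTG1 beside regions like its own. Among 204 other UAAA transcripts with at most 30 counted nt, 29 scored above ACTG1.

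ACTB and ACTG1 therefore differed in RRTS in G418 A with intervals far apart, 9.27 to 11.2% against 51.0 to 68.7%. The regions were of different kinds: 200 counted nt without a stop in ACTB, and in ACTG1 15 nt that end with the UAG itself. Over the whole counted 3′UTR, which had similar lengths (206 and 195 nt), the densities were close, 10.2% of the CDS density in ACTB (465 reads, interval 9.27 to 11.2%) and 9.08% in ACTG1 (360 reads, interval 8.16 to 10.1%). In the untreated libraries the same measure was 0.799% and 1.21% for ACTB and 0.302% and 0.0328% for ACTG1. The coding sequences of the pair were 91.3% identical, and 101 of the 1098 stretches of 28 nt in the ACTB CDS (9.20%) occurred unchanged in ACTG1, so a part of the CDS reads could have been credited to either gene.

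PFN1, the major profilin, scored 0.89% in Untreated A (23 reads), 0.474% in Untreated B (23 reads) and 21.6% in G418 A (565 reads) over 236 counted nt. The G418 value was 31.7-fold above the untreated mean of 0.682% ± 0.294 (SD, n = 2; log2 change 4.99, SE 0.65, edgeR adjusted p = 3.43e-11). UGAC stops had the highest median of the 5 stop signals found among these genes, 38.7% over 560 other transcripts, and 32.3% of those scored lower than PFN1. Its paralog PFN2, with a UAAA stop, had no readthrough read in any library and could not be fitted. PFN2 had few CDS reads (379, 492 and 577), so that 3 reads in G418 A would already have been an RRTS of 18.5%. No read fell anywhere in its 272 counted nt of 3′UTR, where the exact 95% interval reached 1.26% of CDS density in G418 A. That 3′UTR held 8 in-frame stops. The same measure was 0.446% in CFL2 and 1.25% in CAPZB, so the limit does not set PFN2 apart from them. As given above, this stop belongs to 1 of 14 coding transcripts of PFN2.

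CFL1, the non-muscle cofilin, had 0, 4 and 174 readthrough reads, an RRTS of 0%, 0.102% and 7.61%. Its untreated values were lower than those of ACTB, PFN1 and TMSB10, and in G418 A it lay under the median of its UGAG class (19.9%, 1053 other transcripts), with 29.3% of the class lower. The fold over the untreated mean was 149 (log2 change 6.93, SE 1.40, edgeR adjusted p = 8.83e-05), but it rested on the 4 reads of Untreated B: against Untreated B alone it was 74.7. CFL2, the cofilin named for muscle, had 0 reads in both untreated libraries and 10 in G418 A, an RRTS of 24.2% (interval 11.6 to 44.7%) in 24 counted nt. That score was 7.72-fold above the floor of 3 untreated reads (3.16-fold and 4.56-fold with Untreated A or Untreated B alone). The change did not pass the test (edgeR adjusted p = 0.457). The intervals of CFL1 (6.50 to 8.85%) and CFL2 in G418 A did not overlap, over regions of 210 and 24 nt. Of the 661 other UAAA transcripts, 75.8% scored lower than CFL2.

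TMSB10, a thymosin that keeps free actin subunits from polymerising, scored 1.23% in the library Untreated A (10 reads), 1.88% in Untreated B (26 reads), and 33.9% with G418 (181 reads). These were the highest untreated values of the 9 transcripts in both libraries. The G418 value was 21.8-fold above the untreated mean of 1.55% ± 0.455 (SD, n = 2; log2 change 4.42, SE 0.76, edgeR adjusted p = 1.75e-06). UAAG stops were the class with the lowest median in G418 A, 5.68% over 411 other transcripts, and 89.8% of them scored lower than TMSB10. Its counted CDS was only 102 nt long, so the density in the denominator came from a short stretch.

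MYL6, the essential light chain of non-muscle and smooth muscle myosin, stood apart at the other end. It had 0, 0 and 3 readthrough reads over 123 counted nt, although its CDS held 2977, 5291 and 3465 reads. The RRTS in G418 A was 0.319% (interval 0.0657 to 0.933%), where the CDS density would have placed 941 reads in the region. Of the 560 other UGAC transcripts, 15.4% scored lower. Of those that could give 100 reads at CDS density, 2 of 61 scored lower, and their median was 33.7%. As given above, this stop belongs to 1 of 12 coding transcripts of MYL6. How many of its CDS reads, on which the 941 rest, came from isoforms that end elsewhere was not tested. PFN1 and MYL6 share the signal UGAC and their intervals in G418 A were far apart (19.8 to 23.6% against 0.0657 to 0.933%).

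CAPZB, the β subunit of capping protein, had 0 readthrough reads in both untreated libraries and 12 in G418 A, in a region of only 12 counted nt. The RRTS in G418 A was 39.2% with a wide interval (20.2 to 68.6%). That score was 7.71-fold above the floor (2.65-fold and 5.05-fold with Untreated A or Untreated B alone). The change of CAPZB did not pass the test (edgeR adjusted p = 0.457). It shares the signal UAAA with ACTG1, PFN2 and CFL2, and these 4 transcripts spanned the whole range seen, 0 to 59.4%, all in regions of at most 24 counted nt. Short regions gave scattered scores in general (the limit was chosen after the data were seen). Among 204 other UAAA transcripts with at most 30 counted nt, 94 scored 0 in G418 A while 29 scored above ACTG1, and the median was 6.06%, beside 7.75% in 454 longer ones. Over all their reads pooled, the short regions had an RRTS of 19.1% and the longer ones 9.65%.

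**Figure D2:**
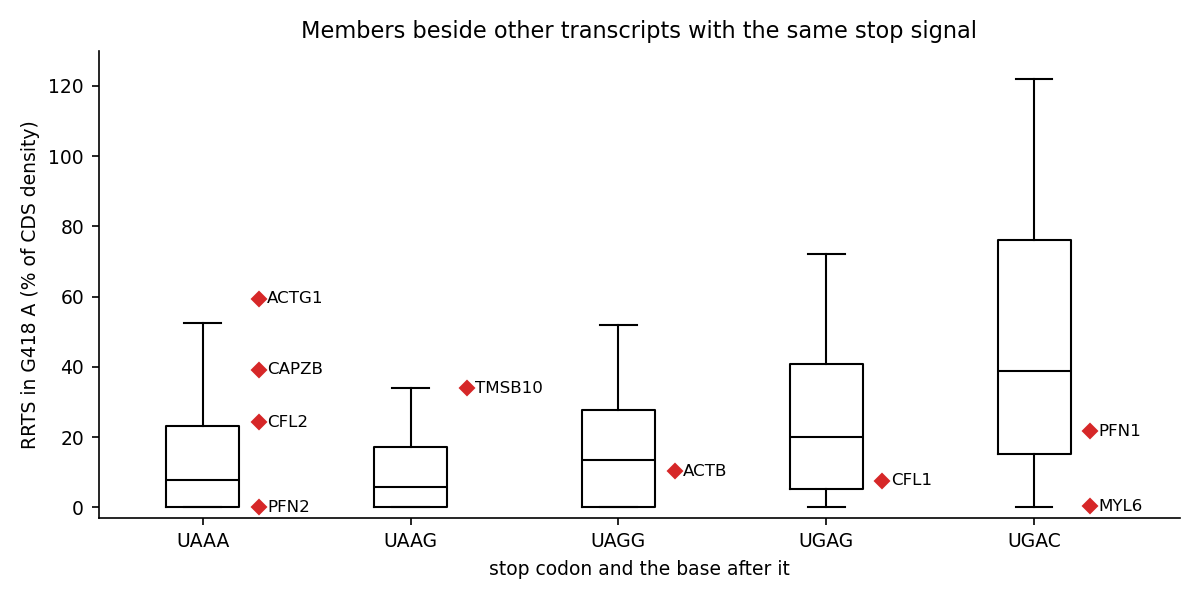
RRTS in G418 A (percent of CDS density, linear axis) of the 9 transcripts (red diamonds) beside the other tested transcripts with the same stop codon and following base (boxes: quartiles and median; whiskers: 10th to 90th percentile). ACTG1 lies above the whisker of UAAA, TMSB10 near that of UAAG, ACTB, CFL1 and PFN1 inside or near the lower part of their boxes, and MYL6 and PFN2 at or close to 0.

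Reads beyond the 3′TC were then set against those in the readthrough region, in the 7 transcripts that had counted 3′UTR on both sides. In G418 A the density dropped after the 3′TC in each of the 5 with reads on both sides. In ACTG1 the remaining 180 nt held 179 reads, 4.89% of CDS density (interval 4.20 to 5.67%) after 59.4% in the readthrough region. In CFL1 the remaining 445 nt held 86 reads, 1.77% of CDS density (interval 1.42 to 2.20%) after 7.61%. In TMSB10 the remaining 146 nt held 10 reads, 1.23% of CDS density (interval 0.588 to 2.28%) after 33.9%. Divided by the density of the readthrough region, which includes the 3′TC and any ribosomes on it, the density after it was thus 0.0824 in ACTG1, 0.233 in CFL1 and 0.0363 in TMSB10. In CFL2 it was 0.00882 (9 reads in 2448 nt) and in CAPZB 0.0163 (12 reads in 737 nt). The 3′UTRs held different numbers of in-frame stops (2 in TMSB10, 3 in ACTG1, 7 in CFL1, 11 in CAPZB and 56 in CFL2), so the remaining stretches are not alike. MYL6 had no read in its remaining 34 nt and PFN2 none in its remaining 257 nt.

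The untreated libraries had few reads in these stretches. ACTG1 had 11 and 2 reads beyond its 3′TC, 0.327% and 0.0355% of CDS density, so the 4.89% in G418 A lay above both intervals (0.163 to 0.586% and 0.0043 to 0.128%). CFL1 had 0 and 5, and its 1.77% in G418 A also lay above both intervals. CAPZB had 0 and 2 reads, and its 0.638% in G418 A (interval 0.329 to 1.12%) lay just above both untreated intervals, which reached 0.296% and 0.304%. For TMSB10 (5 and 12 reads, 0.405% and 0.57%) and CFL2 (3 and 0 reads, 0.075% and 0%, beside 0.213% in G418 A) the G418 interval overlapped at least 1 untreated one, and their differences were not tested.

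**Figure D3:**
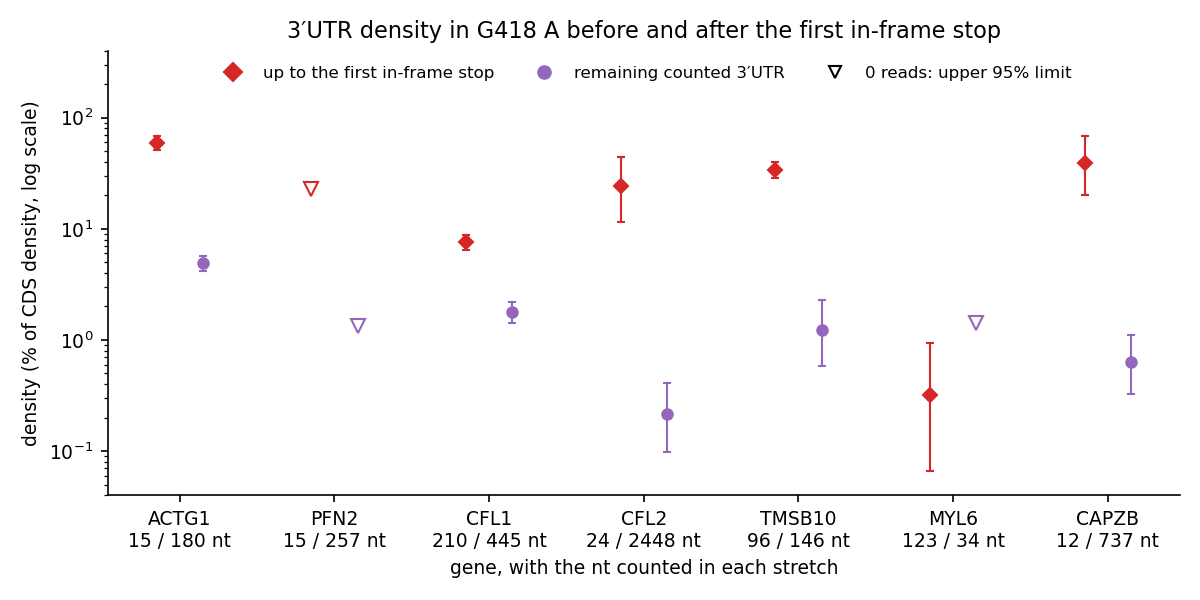
RPF density in G418 A (percent of CDS density, log axis) from the NTC through the first in-frame stop (diamonds) and in the rest of the counted 3′UTR (circles), for the 7 transcripts with an in-frame stop, with exact 95% intervals and open triangles for the upper limit where no read was counted. ACTG1, CFL1, CFL2, TMSB10 and CAPZB each drop after the stop, from 59.4 to 4.89% in ACTG1.

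CDS occupancy, here RPF counts on the CDS scaled between libraries, was compared on the deposited counts. These libraries hold no mRNA levels, so a change in mRNA could not be told apart from a change in translation. The only member that passed the test was TMSB10, which fell. The actins remained among the most densely occupied transcripts in every library, with ACTB ranked 8, 5 and 7 and ACTG1 ranked 7, 8 and 10 by RPKM in the 2 untreated libraries and G418 A, in that order. The 9 transcripts held 1.45%, 1.57% and 1.30% of all CDS reads in these libraries. The background was 0.721% of 5684 transcripts called lower and 1.94% called higher (41 and 110, edgeR quasi-likelihood test).

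TMSB10 had a CDS density of 1443 RPKM in Untreated A and 1523 RPKM in Untreated B, and of 770 RPKM with G418. The untreated libraries were close to each other and the G418 library lay at 0.52 of their mean. The log2 change was -1.02 (SE 0.20, edgeR adjusted p = 0.000175) and was -0.99 against Untreated A alone and -1.04 against Untreated B alone. DESeq2 gave an adjusted p of 0.00199. The 5′UTR of TMSB10 carried 138, 276 and 109 reads in 72 counted nt, a density of 22.7%, 26.6% and 27.2% of the CDS density. That was far above the 0 to 5.43% of the other 8 transcripts, and its intervals in the 3 libraries overlapped, so that no difference in this ratio was detectable.

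PFN1 was at 1870 and 2169 RPKM untreated and 1536 RPKM in G418 A. CFL1 was at 1871 and 1972 RPKM untreated and 1509 RPKM in G418 A. For both, the G418 library was below both untreated ones, but the log2 changes of -0.47 (SE 0.18) and -0.42 (SE 0.18) did not pass the test, with edgeR adjusted p of 0.179 and 0.26. ACTG1, at 3186, 3301 and 2816 RPKM, and MYL6, at 1122, 1232 and 1060.0 RPKM, were also lowest in G418 A, with log2 changes of -0.28 and -0.22 (adjusted p = 0.551 and 0.652).

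ACTB was at 3007, 3524 and 3071 RPKM, so that G418 A lay between the untreated libraries (log2 change -0.16, adjusted p = 0.793). CFL2 was at 279, 248 and 239 RPKM and CAPZB at 289, 340 and 354 RPKM, with log2 changes of -0.21 and 0.10 (adjusted p = 0.70 and 0.874). PFN2 had the lowest level, 121, 97.2 and 150 RPKM, with a log2 change of 0.39 (adjusted p = 0.424). The order of the levels put ACTB and ACTG1 first, PFN1 and CFL1 next, then TMSB10 and MYL6, with CAPZB, CFL2 and PFN2 lower. In the untreated libraries ACTB and ACTG1 changed places, as did PFN1 and CFL1, while in G418 A TMSB10 came after MYL6. The median log2 change of the 9 was -0.22, beside 0.00 over all tested transcripts.

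**Figure D4:**
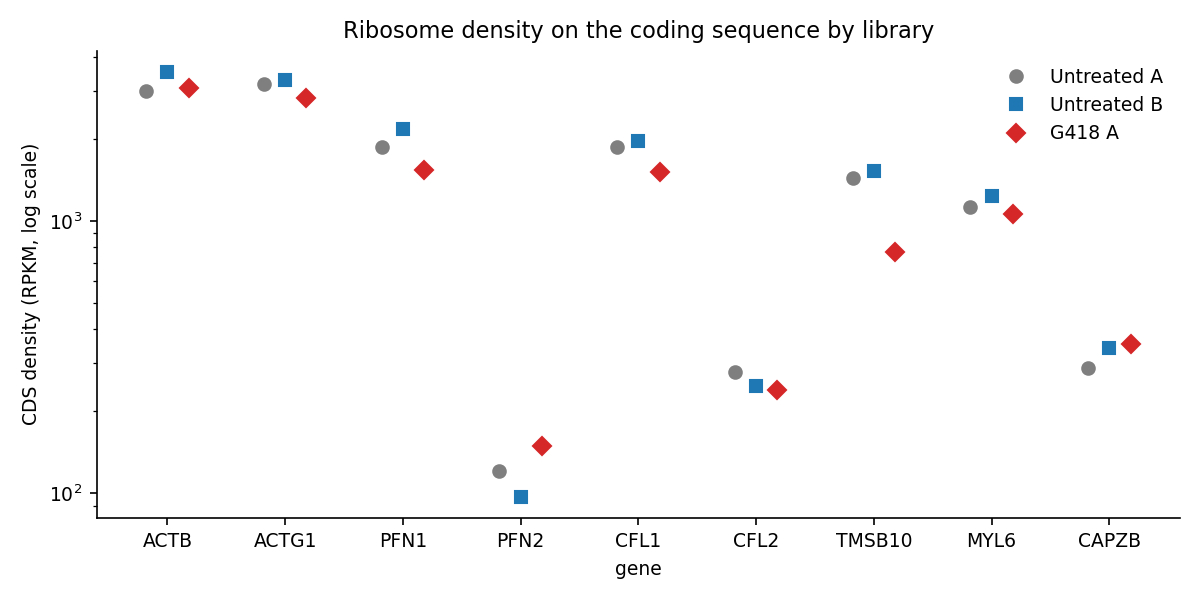
CDS density (RPKM, log axis) of the 9 transcripts, 1 point per library. TMSB10 falls from 1443 and 1523 to 770 RPKM, while for the other 8 the difference did not pass the test.

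The wider actin cytoskeleton was followed with a list of 164 genes in 7 groups: actin isoforms, monomer binding and filament turnover, nucleation, capping and severing, crosslinking and anchoring, tropomyosins and myosins, and actin maturation and transcription. Of these, 106 were tested and 31 were not listed in any library. In CDS occupancy TMSB10 was the only one past the threshold, with 0 higher and 1 lower. The median log2 change was -0.08 over the 106 and -0.07 without the 9 transcripts above, beside 0.00 over all tested. By group, the medians ran from -0.22 (4 actin isoforms) and -0.18 (30 crosslinking and anchoring proteins) to 0.23 (3 genes of actin maturation and transcription). When libraries were scaled by total RPM alone, the median of all tested transcripts moved to 0.07 and that of the 106 to -0.01.

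In readthrough, 9 of the 88 fitted genes of the list were called higher by edgeR, and 4 of 80 without the members. Of all fitted transcripts 3.10% were called higher, and DESeq2 called none. As given above, the call followed the number of reads. Beside the 5 members the called genes were MYL12A, a regulatory myosin light chain (43.99% RRTS in G418 A, 286 reads), MARCKSL1, a membrane-bound actin-binding protein (56.3%, 219 reads), BRK1, a subunit of the WAVE complex (29.5%, 170 reads), and CNN3, a calponin (37.5%, 102 reads). The median RRTS of the list in G418 A was 13.5%, beside 18.3% over all tested transcripts. Among the 71 genes that averaged 500 CDS reads or more, the highest scores came from regions of 12 to 45 counted nt with few reads. They were DBN1 (125%, 5 reads), the CD2AP adaptor (122%, 13 reads), the motor MYO6 (93.8%, 13 reads), ADD3 (77.2%, 9 reads) and PALLD (75.9%, 11 reads), and none of these 5 passed the test. In Untreated A and Untreated B, CD2AP already scored 37.5% and 0%, ADD3 19.4% and 5.06%, and PALLD 0% and 10.0%, from at most 3 reads each. DBN1 and MYO6 scored 0% in both. Another 9 had no readthrough read in G418 A: RDX, CTTN, DIAPH3, ARPC5, FLII, FLNC, GSN, PDLIM5 and PLS1. For ARPC5, a subunit of the Arp2/3 complex, 3 reads would have been 1.21%, and for RDX, an ezrin-like membrane linker, 4.13%. The same limit was 42.8% for DIAPH3, 32.2% for PDLIM5, 28.2% for FLNC, 23.6% for PLS1, 16.7% for GSN and 16.5% for FLII. These limits lay near or above the median of 18.3% over all tested transcripts, so a 0 there says little. For CTTN the limit was 9.34%.

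**Figure D5:**
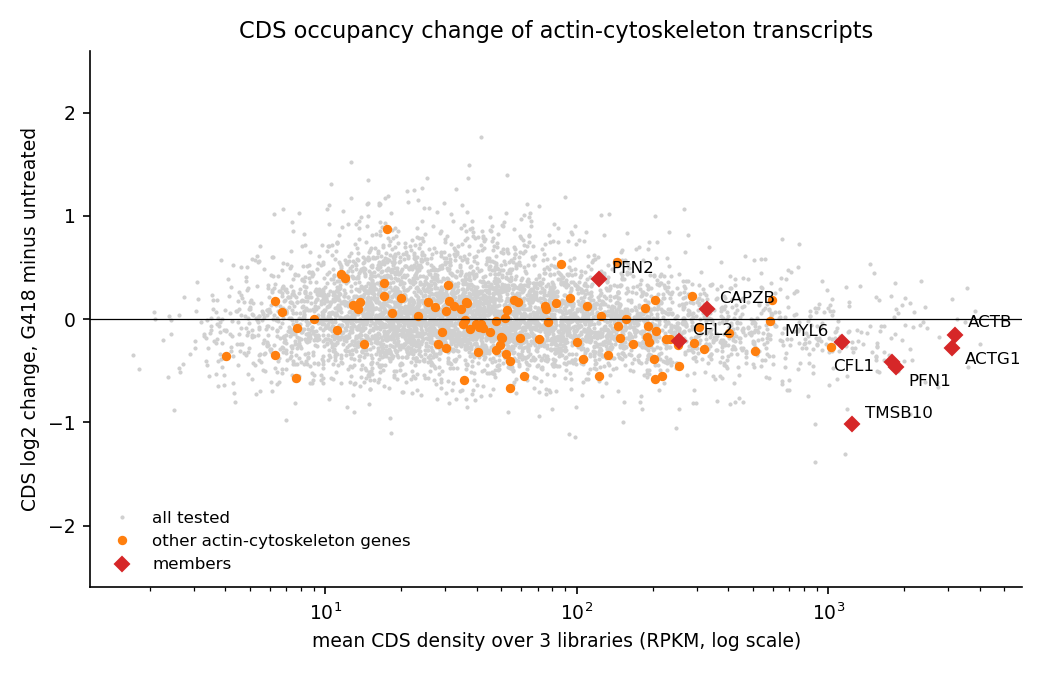
Log2 change of CDS occupancy, G418 minus untreated, against mean CDS density (RPKM, log axis) for all tested transcripts (grey), the wider actin list (orange) and the 9 transcripts (red, named). TMSB10 lies at -1.02, apart from the other 8, which lie between -0.47 and 0.39.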

How the data were processed

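RPFs of 28 to 35 nt from 3 HEK293T libraries had been aligned with STAR to hg38 and assigned to 1 transcript per gene by the authors, who also left out the ends of each CDS. The authors deposited whole-number CDS counts, RPM values (reads scaled to a fixed library total), RPKM densities and ratios (RRTS and 3′UTR occupancy). All RPM values were whole multiples of 1 read (100.0% in each library, tolerance 0.01), and readthrough and UTR reads were recovered from them. The deposited CDS count fell 1 short of the recovered one in 9080 of 9099 Untreated A transcripts (Untreated B: 283 of 9311, and G418 A: 72 of 9370).

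CDS counts were tested with edgeR 4.0.16 (TMM, quasi-likelihood, Benjamini-Hochberg) in R 4.3.3 over 5684 transcripts whose mean CDS reads reached 128. Recovered readthrough reads were tested likewise, offset by the number the CDS density would give, with 1 residual degree of freedom in both fits. The deposited count columns do not hold the readthrough region, so that test used recovered reads. Each SE given with an edgeR log2 change is the size of that change over the square root of the test's F statistic. It is not a standard error reported by edgeR. DESeq2 1.42.0 was an alternative. The CDS and readthrough edgeR tests were also run on simulated counts with known changes. For log2 changes of size 1, 2 and 4, the CDS test called 58 of 80, 80 of 80 and 40 of 40. The readthrough test called 1 of 80, 13 of 80 and 27 of 40, so it missed many of the changes set in these counts. Of 5484 unchanged transcripts, the CDS test called 10 and the readthrough test 0. Whether these rates hold for the real readthrough reads, which were few in untreated cells, was not tested. Intervals are exact (Clopper-Pearson) 95% intervals of counting error only. A count of 0 was given a limit of 3 reads, per library for a score and over both untreated libraries for a fold. Such a fold divides the G418 A score itself by that limit, so it leaves out the counting error of G418 A.

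The named members and lists were chosen with earlier results of these data known. All listed members were named, and of the wider list each gene past the CDS threshold, the 5 highest and the lowest RRTS in G418 A among those averaging 500 CDS reads or more (all 9 at 0, since they tied). The 4 other genes called in readthrough were named after their values were seen. Lengths of the readthrough regions were checked against GENCODE v44, where 7138 ran through the first in-frame stop, 364 had no such stop and 2204 transcripts were not matched. The listed ACTG1, PFN1 and CFL2 transcripts were earlier versions than those in v44. The sequence at 1 of the stop codons is not reported here.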

Additional observations from a re-analysis of the deposited data

How the results depend on the processing

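Leaving out a library moved the readthrough fold of CFL1 by over 1.5 times: it was 149 over the untreated mean, 74.7 without Untreated A and 99.2 over the whole 3′UTR. Without Untreated B it has no value, since Untreated A had 0 reads. The folds of ACTG1, CFL2 and CAPZB over a limit of 3 reads in both untreated libraries were 148, 7.72 and 7.71. With either left out they ran from 55.4 to 92.9, 3.16 to 4.56 and 2.65 to 5.05, since fewer CDS reads then stand behind the limit. For ACTB, PFN1 and TMSB10 the folds ran from 8.21 to 12.4, 24.3 to 45.6 and 18.1 to 27.5 when either untreated library was left out. Such a comparison of 1 library with 1 has no test. DESeq2 called 27 transcripts in CDS occupancy (10 higher, 17 lower) where edgeR called 151, or 72.8% higher against 37.0%, and scaling by RPM alone called 206 (173 higher, 33 lower, 84.0% higher). A minimum of 20 CDS reads, no minimum and recovered CDS reads gave 130, 122 and 151. TMSB10 was called lower in each of these 6 fits and no other member was called in any. In readthrough, DESeq2 called 0 and the whole 3′UTR 374 where edgeR called 139, and the same 5 members were called in every edgeR fit and in none with DESeq2. The cause was not tested. All members kept their direction in CDS occupancy under every setting, although CAPZB came down to 0.00 against Untreated B alone. RRTS over the untrimmed CDS was not run because the tables hold only trimmed CDS reads. No paired analysis was possible because the groups share only the letter A. Regions of 12 to 24 counted nt, which include the 3′TC, limit ACTG1, PFN2, CFL2 and CAPZB.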
